A study of Mus musculus with 42 samples.

Results

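The data described here concern 81 odorant receptor (OR) genes of the mouse, the intact receptors named Olfr987 to Olfr1111. They were chosen by name, with earlier results of these data known. The rule takes every Olfr gene numbered in that range, without a suffix, that all 9 deposited tables list. It leaves out Olfr1019 and Olfr1065, so the counts of calls below do not hold these genes. The chosen genes make up 81 of the 1088 intact ORs measured by pS6-IP-Seq, and 81 of the 1087 measured in dorsal and ventral tissue. The mouse annotation placed all 81 on chromosome 2, in the order of their numbers. Mice of the strain C57BL/6 (C57BL/6J in the study's methods), labeled as p20 to p22, were exposed for 1 h to acetophenone (ACT), to the fox odor component trimethylthiazoline (TMT) or to no odor. Both odorants were used undiluted (100%) and at 3 dilutions by volume, 1%, 0.1% and 0.01%, with 3 mice per group. A replicate is a litter, sampled within 1 sex. An experiment with low concentrations (0.01% and 0.1%) and another with high ones (1% and 100%) were done per odorant, each around its own 3 unexposed mice. RNA bound to phosphorylated ribosomal protein S6 was then precipitated from the whole olfactory epithelium and sequenced. Separately, RNA-Seq was done on 3 dorsal and 3 ventral samples of the epithelium from unexposed mice of the same strain and age label. The study describes 3 mice for these samples.

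Odorant receptors are G protein-coupled receptors of the cilia of olfactory sensory neurons. A mature neuron expresses a single receptor gene out of a large repertoire, so the mRNA of a receptor also labels the neurons that chose it. Firing leads to phosphorylation of S6 in the neuron, and precipitation of phosphorylated S6 therefore enriches the mRNA of receptors whose neurons responded to the odor. Receptor genes lie in clusters on many chromosomes, and those on chromosome 2 belong to class II. Each receptor is chosen within a zone of the epithelium, which runs from dorsal to ventral. The genes studied here carry a systematic MOR family number as well, in which receptors of similar sequence share a family.

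In the GENCODE M21 annotation of GRCm38, the 81 genes spanned chr2:85330779-87152624, a stretch of 1.82 Mb. The plus strand holds 26 of them and the minus strand 55. The deposited tables count all of them as intact, and the annotation lists 80 as protein coding and Olfr1010 as a polymorphic pseudogene with a coding length of 944 bases. All 81 have their coding sequence in a single exon, with a median coding length of 939 bases and a range of 915 to 1038 bases. Of the 81, 76 could be given 1 MOR family, and these fall into 25 families. The largest are MOR185 with 8 genes, MOR213 with 7, and MOR179 and MOR203 with 6 each. Each gene's closest relative among the others was between 66.5% and 98.7% identical in coding sequence, with a median of 83.2%.

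The sequences just before the annotated start of the genes that responded most are shown here, since OR promoters commonly hold Olf/Ebf and homeodomain sites. They are the 250 bases upstream of Olfr1087 (minus strand, chr2:86698396-86698645), Olfr1047 (minus strand, chr2:86231402-86231651), Olfr1093 (plus strand, chr2:86782229-86782478) and Olfr1054 (minus strand, chr2:86335434-86335683), the 4 members with the smallest p at 100% TMT. Olfr1026 (plus strand, chr2:85921308-85921557), the member called at 0.1% ACT, is added. All are from GRCm38.p6 and read 5′ to 3′ on the strand of the gene, so that the last base touches the gene. Capitals mark TCCCNNGGG, the core letters of Olf/Ebf sites, and TAATTA, a homeodomain core, each searched on both strands.
Olfr1087: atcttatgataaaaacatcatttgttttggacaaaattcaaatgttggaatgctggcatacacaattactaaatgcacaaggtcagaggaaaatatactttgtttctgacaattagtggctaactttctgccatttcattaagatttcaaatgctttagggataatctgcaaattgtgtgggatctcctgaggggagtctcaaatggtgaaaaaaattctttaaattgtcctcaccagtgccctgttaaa
Olfr1047: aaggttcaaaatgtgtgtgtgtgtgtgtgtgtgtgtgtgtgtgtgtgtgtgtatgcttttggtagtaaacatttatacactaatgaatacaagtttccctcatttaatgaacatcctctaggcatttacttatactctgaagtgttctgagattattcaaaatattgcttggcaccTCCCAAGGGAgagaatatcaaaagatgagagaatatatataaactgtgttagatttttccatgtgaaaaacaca
Olfr1093: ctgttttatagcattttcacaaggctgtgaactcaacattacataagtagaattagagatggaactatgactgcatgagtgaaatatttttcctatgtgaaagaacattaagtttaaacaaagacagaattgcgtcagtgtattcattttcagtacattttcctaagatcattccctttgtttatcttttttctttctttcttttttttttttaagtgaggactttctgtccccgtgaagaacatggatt
Olfr1054: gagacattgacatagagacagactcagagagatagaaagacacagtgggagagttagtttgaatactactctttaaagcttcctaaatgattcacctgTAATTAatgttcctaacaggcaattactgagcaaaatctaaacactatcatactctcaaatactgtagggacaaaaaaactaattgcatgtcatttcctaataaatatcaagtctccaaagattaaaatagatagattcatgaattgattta
Olfr1026: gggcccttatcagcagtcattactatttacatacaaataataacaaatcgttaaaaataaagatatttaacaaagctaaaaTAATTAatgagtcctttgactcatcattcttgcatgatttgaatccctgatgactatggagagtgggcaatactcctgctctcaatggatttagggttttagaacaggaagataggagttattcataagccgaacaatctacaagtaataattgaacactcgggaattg

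In these 5 windows, the Olf/Ebf letters occurred in that of Olfr1047 alone, as 2 overlapping matches on opposite strands. TAATTA, which reads the same on both strands, occurred in the windows of Olfr1054 and Olfr1026. Among the 64 members annotated with 2 or more exon blocks, TCCCNNGGG was present in 5 windows (7.81%), against 100 of 966 windows over all ORs (10.4%). TAATTA was present in 23 of the 64 (35.9%), against 225 of 966 (23.3%). Of the 14 members called higher at 100% TMT, 2 had TCCCNNGGG and 5 had TAATTA (35.7%). The 2 motifs overlapped in none of the windows. A match describes the letters only.

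Receptors with near-identical copies need care, because 50-base reads cannot always be assigned to 1 of them. Of the 81 members, 31 share no 50-base stretch of their transcripts with another intact OR. Over 20% of such stretches are shared in 6 members, which are Olfr987, Olfr988, Olfr1049, Olfr1080, Olfr1082 and Olfr1084. The coding sequences of Olfr1049 and Olfr1051 differ at 12 of 924 bases. A window of 120 coding bases of this pair is shown to make the scale plain, at chr2:86255091-86255210 for Olfr1049 and chr2:86275885-86276004 for Olfr1051, both on the minus strand of GRCm38.p6. Capitals mark the 4 bases that differ.
Olfr1049: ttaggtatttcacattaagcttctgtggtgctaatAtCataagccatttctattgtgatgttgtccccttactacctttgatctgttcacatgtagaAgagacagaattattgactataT
Olfr1051: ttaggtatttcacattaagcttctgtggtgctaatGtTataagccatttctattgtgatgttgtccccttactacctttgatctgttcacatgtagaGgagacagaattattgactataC

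The trio Olfr1080, Olfr1082 and Olfr1084 differs at 34 of 939 coding bases. Of these, 9 lie in the following windows, and they are marked by capitals. The windows are at chr2:86553285-86553404, chr2:86593989-86594108 and chr2:86638869-86638988, on the minus strand. Values of these genes are uncertain to the extent that reads were split between the copies. The transcripts of Olfr1013 and Olfr1014 overlap on the same strand, over 0.8% of the exon bases of Olfr1013. Olfr1014 also overlaps Gm49332. Olfr1034 overlaps a pseudogene on the other strand over 0.9% of its exon bases, which reads without strand cannot separate. Olfr1034 and Olfr1036, 98.0% identical in coding sequence, share 10.1% and 15.47% of their 50-base stretches with each other.
Olfr1080: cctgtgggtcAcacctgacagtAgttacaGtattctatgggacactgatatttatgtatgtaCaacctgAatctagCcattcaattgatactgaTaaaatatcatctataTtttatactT
Olfr1082: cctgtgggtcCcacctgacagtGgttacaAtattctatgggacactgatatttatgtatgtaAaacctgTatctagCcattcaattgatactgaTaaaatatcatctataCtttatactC
Olfr1084: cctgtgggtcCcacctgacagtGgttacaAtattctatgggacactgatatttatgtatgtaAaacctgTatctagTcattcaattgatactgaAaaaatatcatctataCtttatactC

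The pS6-IP-Seq libraries held 37012 to 128805 counts on ORs, of which the members took between 3.06% and 7.51%. The RNA-Seq libraries held 155319 to 242123 counts on ORs. Values below are normalized counts, that is, counts per 100000 OR counts after TMM scaling. Calls are from edgeR's quasi-likelihood test with litter as a block and Benjamini-Hochberg adjustment over all intact ORs, at an adjusted p below 0.05. Two-sided p values are given throughout. The tables list ORs only, so the tissue could not be checked by markers of other cell types. The library of litter 1 at 0.01% ACT stands apart, and the dorsal library of replicate 2 holds more counts on ventral receptors than its fellows. Calls that rest on them are given below with and without them.

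Most of the members are dorsal receptors. Of the 81, 51 (63.0%) were higher in dorsal tissue and 12 (14.8%) in ventral tissue, while 18 passed in neither direction. Of all ORs tested, 37.4% were called dorsal and 37.2% ventral. The members together took 8.74% ± 0.51 (SD, n = 3) of OR counts in dorsal samples and 3.63% ± 0.27 in ventral samples. An exact permutation test gave p = 0.1, the smallest p that 3 against 3 unpaired samples allow. It leaves out the replicate number, which the edgeR fit takes as a block. The median log2 difference, dorsal minus ventral, was 2.57 over the members and -0.67 over all ORs. Without TMM scaling the median over all ORs moved by -0.59. Fewer neurons of a type and less RNA per neuron cannot be told apart in such tissue samples.

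The largest dorsal differences belonged to neighbours on the chromosome. Olfr1022 had 22.7, 19.3 and 33.2 normalized counts in the 3 dorsal samples and 1.0, 0.4 and 1.5 in the ventral ones, a log2 difference of 4.65 ± 0.70 (SE, adjusted p = 1.52e-04). Its neighbour Olfr1023 had 131.8, 106.6 and 185.5 normalized counts in dorsal samples, against 4.4, 9.5 and 6.0 in ventral samples (log2 difference 4.42 ± 0.66). For neither gene did the groups overlap. Olfr1043, Olfr1044 and Olfr1045, which lie side by side and belong to family MOR185, had log2 differences of 4.44, 4.40 and 4.29. Their dorsal values ran from 202.6 normalized counts to 655.3, and none of their ventral values passed 34.4. The 51 dorsal members had log2 differences of up to 4.65, with a median of 3.43.

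The ventral members were fewer and lay mainly at the distal end of the stretch. Olfr1098 was nearly absent from dorsal tissue, with 0.0, 3.7 and 0.0 normalized counts against 43.7, 44.7 and 33.8 in ventral tissue (log2 difference -5.39 ± 0.93, adjusted p = 2.70e-04). Its dorsal counts were 0, 6 and 0 reads, so the size of this difference depends on very few reads. Olfr1097 had 2.0, 6.9 and 8.1 normalized counts in dorsal samples and 80.6, 85.6 and 69.0 in ventral samples (log2 difference -3.91). With Olfr1099 (-3.41) and Olfr1100, these genes make up family MOR206, and all 4 were called ventral. Olfr1093 had dorsal values of 1.0, 10.0 and 1.4 normalized counts, and ventral values of 55.4, 42.6 and 33.3 (log2 difference -3.83). Olfr1080, 1 of the near-identical trio, had 7.6, 27.4 and 0.0 dorsal and 74.3, 47.7 and 57.5 ventral normalized counts (-3.11).

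In each of these 5 genes the highest dorsal value was that of replicate 2 or 3, and for 4 of them it was replicate 2. Summed over the ventral members, the dorsal samples held 201, 546 and 97 normalized counts, and the ventral samples 1210, 1046 and 1035. Without replicate 2, 52 members were called dorsal and 13 ventral. Without replicate 1 the calls were 40 and 7, and without replicate 3 they were 43 and 4. The share of all ORs called was not counted in these fits, so whether the loss of calls is particular to the members is not known. The direction of all 10 genes with the largest differences, which were picked for their size, held in each of these fits. All alternatives tried kept 38 of the 51 dorsal calls and 4 of the 12 ventral calls.

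**Figure D1:**
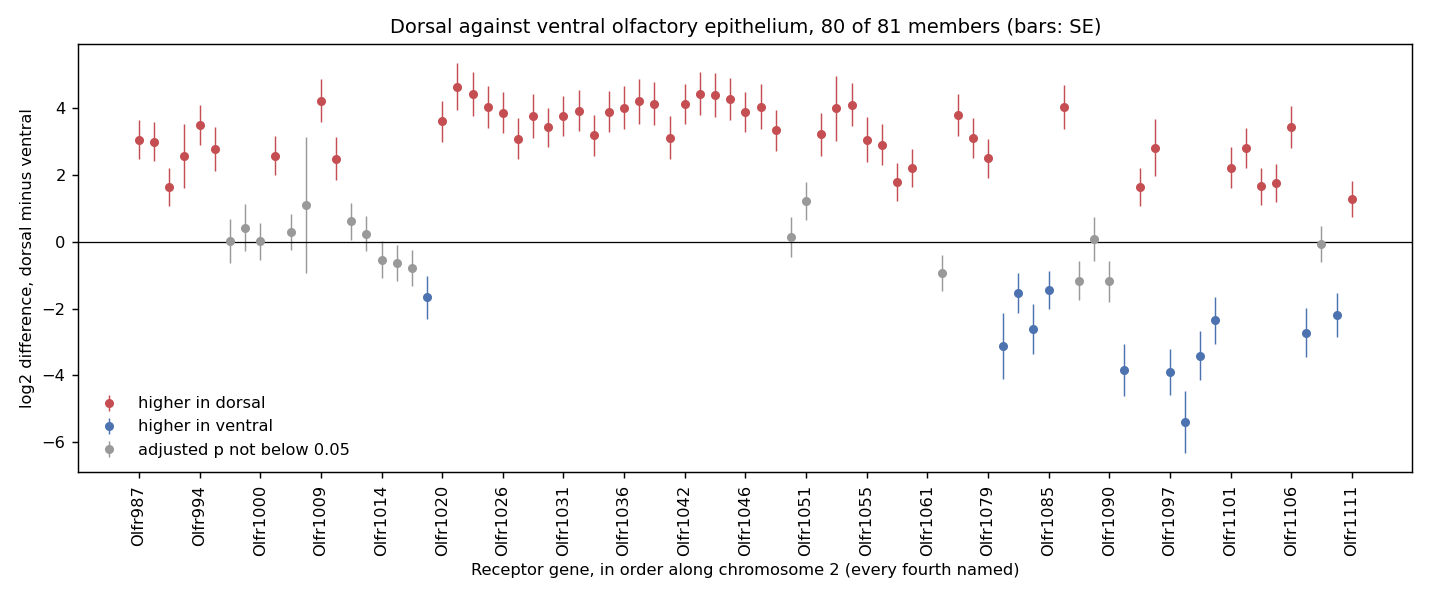
Log2 difference in RNA-Seq between 3 dorsal and 3 ventral samples (y axis, points with bars of 1 SE) for the members in their order along chromosome 2 (x axis). Red points were called higher in dorsal, blue points higher in ventral and gray points in neither. The 23 genes from Olfr1020 to Olfr1048 form an unbroken run of dorsal calls, and 9 of the 12 ventral calls lie between Olfr1080 and Olfr1100.

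Dorsal and ventral calls are given here along the chromosome, in stretches whose limits follow the calls themselves. The counts per stretch therefore depend on where the limits were drawn. Whether the calls cluster was not tested. At the proximal end, all 6 members from Olfr987 to Olfr995, of family MOR203, were dorsal. The next 14 members, from Olfr996 to Olfr1018, had 10 without a call, 3 dorsal and 1 ventral, with a median log2 difference of 0.27. Among them, 6 of the 7 MOR213 receptors were called in neither direction. From Olfr1020 to Olfr1048, 23 of 23 members were dorsal over 393 kb, with log2 differences of 3.10 to 4.65 and a median of 3.93. The 14 members from Olfr1049 to Olfr1079 had 10 dorsal calls and 4 without a call. From Olfr1080 to Olfr1100, 9 of 15 were ventral, 3 dorsal and 3 uncalled, with a median log2 difference of -1.53. In the last 9 members, up to Olfr1111, the calls were 6 dorsal, 2 ventral and 1 neither.

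Close neighbours could still differ sharply in zone. Olfr1086 was dorsal, with 72.7, 47.4 and 94.8 normalized counts against 3.9, 5.6 and 3.0 in ventral samples (log2 difference 4.04). The next gene, Olfr1087, had 66.2, 96.6 and 42.6 dorsal and 148.6, 131.6 and 156.7 ventral normalized counts (log2 difference -1.16, adjusted p = 0.0854), so it was not called although its samples did not overlap. Olfr1018, the ventral gene just before the dorsal run, had 79.8, 202.0 and 36.6 dorsal and 275.4, 255.5 and 266.1 ventral normalized counts (-1.66, adjusted p = 0.0323). Its call was lost without the replicate block, without replicate 1 and without replicate 3. In Olfr1061, no count was found in any of the 6 samples.

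In unexposed mice the members differed widely in their pS6-IP-Seq level. On a scale of normalized counts per kb of exon sequence, the median over the 12 no odor libraries was highest for Olfr1018, at 141.3 per kb with a range of 107.8 to 257.2. Olfr1104 followed at 89.8 per kb (63.1 to 118.6), then Olfr1110 at 71.9 (48.7 to 90.7) and Olfr994 at 60.8 (37.1 to 76.1). These ranges overlap between each gene and the next in the order. The median over the members was 10.8 per kb, and 4 members had a median of 0.

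At 100% TMT, 14 of the 81 members were called higher (17.3%) and 2 lower (2.5%). Of all ORs, 11.6% were called higher and 3.31% lower. The 14 were Olfr1087, Olfr1047, Olfr1093, Olfr1054, Olfr1104, Olfr1094, Olfr1079, Olfr1102, Olfr1101, Olfr1048, Olfr1023, Olfr1085, Olfr1051 and Olfr1082, with log2 fold changes of 1.28 to 2.78. The median log2 fold change was -0.01 over the members and -0.09 over all ORs. Without TMM scaling the median over all ORs moved by -0.24, and the members' calls were then 13 higher and 6 lower. The share of all ORs called without TMM scaling was not counted.

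The strongest responses to 100% TMT were shared by 3 receptors of family MOR188 and by the ventral receptor Olfr1093. Olfr1087 had 31.9, 32.3 and 51.1 normalized counts with no odor and 171.2, 383.7 and 295.6 at 100% TMT, a log2 fold change of 2.78 ± 0.30 (SE, n = 3, adjusted p = 2.49e-17 in edgeR's quasi-likelihood test). Olfr1047 had 24.3, 38.7 and 34.0 with no odor, and 121.7, 234.4 and 304.7 at 100% TMT (log2 fold change 2.64 ± 0.32, adjusted p = 1.48e-14). In both receptors the lowest value with odor was above the highest without. Olfr1054, the third of this family, had 16.7, 28.0 and 21.9 with no odor and 113.5, 145.2 and 231.7 with the odor (log2 fold change 2.78 ± 0.35, adjusted p = 5.80e-13). Olfr1093 had 72.9, 64.6 and 34.0 with no odor, and 214.6, 304.9 and 456.2 at 100% TMT (log2 fold change 2.38 ± 0.29, adjusted p = 1.09e-13). Every exposed mouse exceeded every unexposed one for these genes too.

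The next receptors by p were Olfr1104 and 3 others. Olfr1104, a dorsal receptor of family MOR207 and among the most abundant members, had 258.2, 176.5 and 238.3 normalized counts with no odor and 451.8, 775.8 and 642.3 at 100% TMT (log2 fold change 1.40 ± 0.28). Olfr1094 had 30.4, 10.8 and 19.4 with no odor, against 72.2, 109.9 and 105.8 with TMT (2.17 ± 0.44). Olfr1079 had 60.7, 73.2 and 104.5, against 165.0, 186.7 and 284.7 (1.36 ± 0.28). None of these groups overlapped. Olfr1102 had 54.7, 51.6 and 90.0 with no odor, and its TMT values were 92.8, 172.2 and 268.2 (1.32 ± 0.30). Here the lowest TMT value was barely above the highest no odor value. Adjusted p values of these 4 ran from 1.09e-05 to 1.40e-04. In Olfr1101, Olfr1048 and Olfr1023 the log2 fold changes were 1.28 ± 0.32, 1.65 ± 0.44 and 1.74 ± 0.49.

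**Figure D2:**
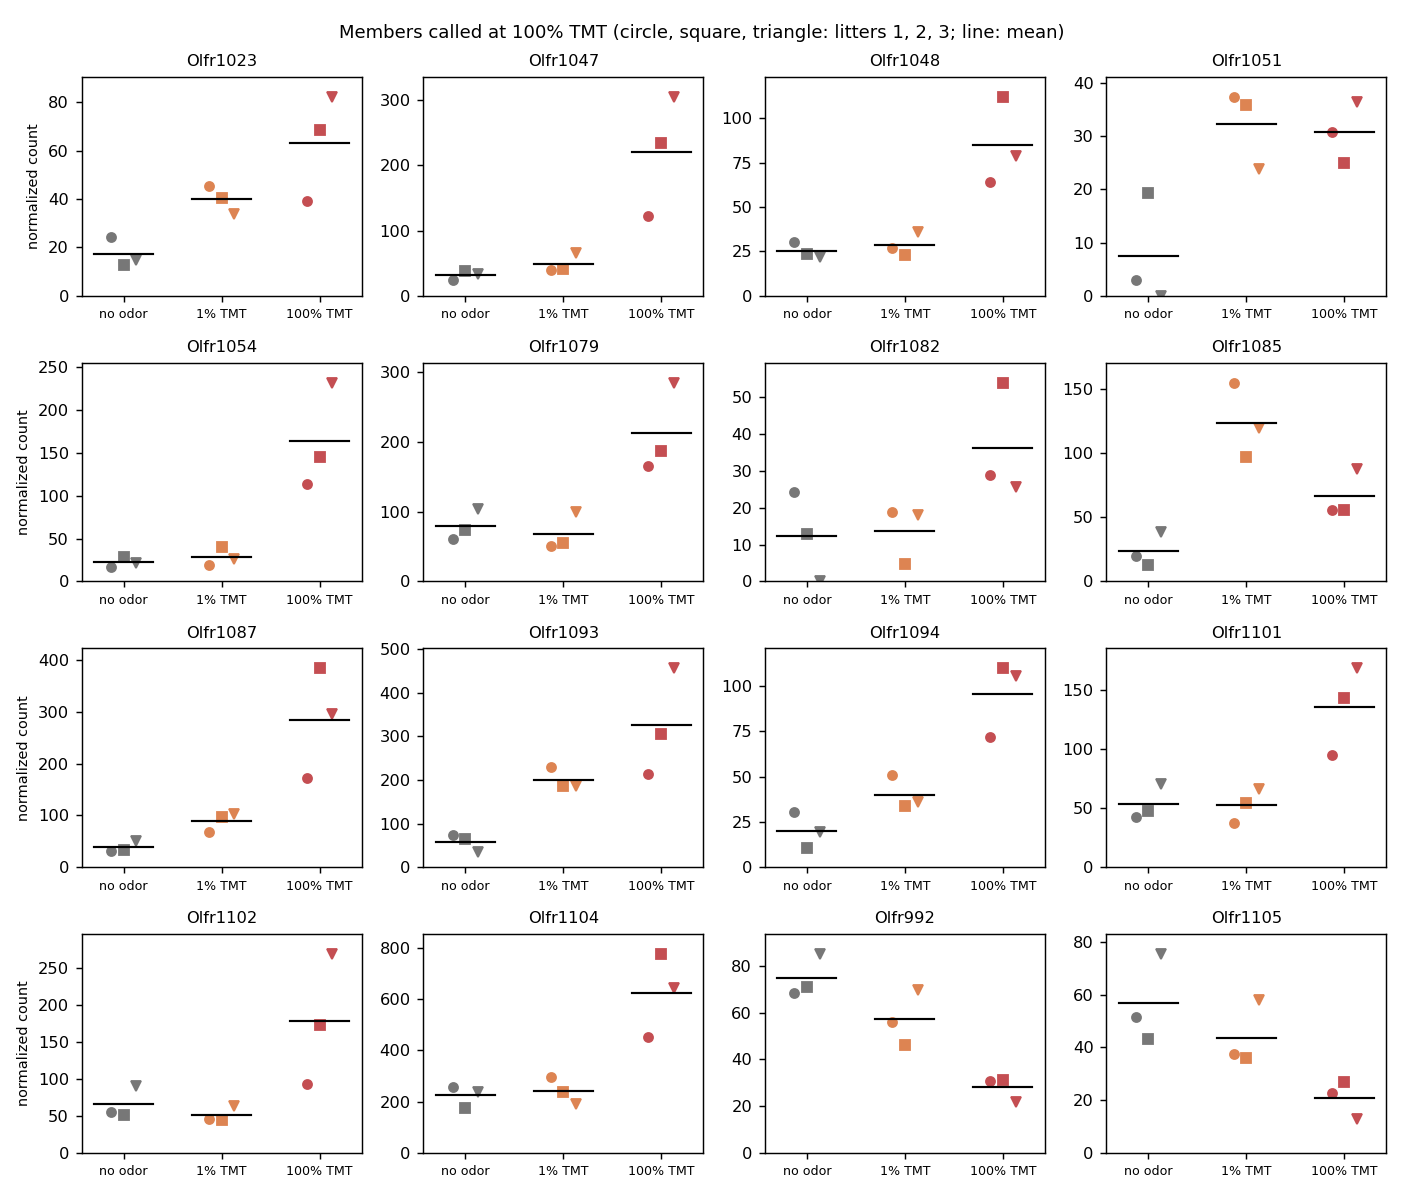
Normalized counts (y axis, scale set for each gene) of the 14 members called higher and the 2 called lower at 100% TMT, in mice given no odor, 1% TMT or 100% TMT (x axis). Circles, squares and triangles are litters 1, 2 and 3, and lines are means of 3 mice. Olfr1085, Olfr1093, Olfr1051 and Olfr1087 are raised at 1% TMT already, while Olfr1047 and Olfr1054 rise at 100% TMT.

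The calls at 100% TMT are given here by family, beside the 11.6% of all ORs called higher. In MOR179, 4 of 6 members were called higher, namely Olfr1093, Olfr1094, Olfr1101 and Olfr1102. The other members of MOR179, Olfr1086 and Olfr1095, had log2 fold changes of 0.17 ± 0.85 and 0.15 ± 1.02. In MOR188, 3 of 5 were called higher, while Olfr1090 had a log2 fold change of 0.12 ± 0.66 and Olfr1061 had no count. MOR187 had 2 of 5 (Olfr1048 and Olfr1051). No member was called higher among the 8 of MOR185, the 7 of MOR213, the 6 of MOR203, the 5 of MOR172, the 5 of MOR175 or the 4 of MOR206. Whether families differed in this was not tested.

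Several called receptors have a close relative that was not called. Olfr1051 had 3.0, 19.4 and 0.0 normalized counts with no odor and 30.9, 24.9 and 36.5 at 100% TMT (log2 fold change 2.20 ± 0.70, adjusted p = 0.0155). Its relative Olfr1049, 98.7% identical, had 10.6, 4.3 and 12.2 with no odor and 10.3, 16.6 and 47.4 with TMT (1.21 ± 0.73, adjusted p = 0.335). The counts behind the no odor values of Olfr1051 were 2, 9 and 0 reads, so its fold change is imprecise. Olfr1082 had 24.3, 12.9 and 0.0 with no odor and 28.9, 53.9 and 25.5 with TMT (1.58 ± 0.59, adjusted p = 0.0496), and 32.02% of its 50-base stretches occur in other ORs. The closest relative of Olfr1082, Olfr1080, is 98.1% identical and had a mean of 48.1 ± 4.7 (SD) with no odor and 48.9 ± 1.3 with TMT. Olfr1023 was called while Olfr1022, 91.3% identical, was not (log2 fold change -3.23, adjusted p = 0.577). Olfr1022 had a median of 2.7 normalized counts over the 12 no odor libraries, so its missing call says little. Only the difference from no odor was tested for these pairs, not the difference between relatives.

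The 2 members called lower were Olfr992 and Olfr1105, both dorsal. Olfr992 had 68.3, 71.0 and 85.1 normalized counts with no odor and 30.9, 31.1 and 21.9 at 100% TMT (log2 fold change -1.46 ± 0.45, adjusted p = 0.0103). Olfr1105 had 51.6, 43.0 and 75.4 with no odor and 22.7, 27.0 and 12.8 with TMT (-1.47 ± 0.48, adjusted p = 0.0198). The groups did not overlap in either. Each of these calls was lost in 3 of 8 alternatives, including fits without litter 1 and without litter 3.

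Of the 14 higher calls, 9 held in all 8 alternatives: Olfr1047, Olfr1054, Olfr1079, Olfr1087, Olfr1093, Olfr1094, Olfr1101, Olfr1102 and Olfr1104. The call of Olfr1048 was lost without litter 2, and that of Olfr1023 without litter 2 or litter 3. Olfr1085 lost its call without litter 1 (adjusted p = 0.073) or litter 2 (0.143). Olfr1051 was not called by DESeq2, nor without litter 1 or litter 3. Olfr1082 held in 3 of the 8 alternatives. By zone, the 14 were 9 of the 51 dorsal members, 3 of the 12 ventral members and 2 of the 18 without a zone call. Over all ORs, 7.86% of those called dorsal, 14.1% of those called ventral and 13.4% of the others were called higher at 100% TMT.

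At 1% TMT, 4 members were called higher and none lower, against 4.69% and 0.184% of all ORs. Olfr1085, a ventral receptor of family MOR191, had 19.7, 12.9 and 38.9 normalized counts with no odor and 155.1, 97.2 and 119.7 at 1% TMT (log2 fold change 2.40 ± 0.37, adjusted p = 4.18e-09). Olfr1093 had 230.0, 185.2 and 185.5 at 1% TMT (1.78 ± 0.29, adjusted p = 3.30e-08), all above its no odor values. These calls held in all 8 alternatives. Olfr1051, at 37.4, 35.9 and 23.9, had a log2 fold change of 2.27 ± 0.67 (adjusted p = 0.0148), and its call was lost in 5 alternatives, among them DESeq2 and the fits without litter 1 and without litter 3. Olfr1087, at 66.9, 97.2 and 101.7, had a log2 fold change of 1.17 ± 0.36 (adjusted p = 0.0219), and its call was lost in 4, among them the fits without litter 1 and without litter 2. For all 4 genes the exposed and unexposed mice did not overlap. All 4 were also called at 100% TMT, in a comparison that shares the no odor mice. At an unadjusted p below 0.05, 7 members were higher and 3 lower at 1% TMT, against 6.71% and 2.57% of all ORs.

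Dilute TMT gave no call among the members by edgeR's quasi-likelihood test. At 0.01% TMT, 0 members were called, 1 had an unadjusted p below 0.05 (5.15% of all ORs did), and neither DESeq2 nor edgeR's likelihood ratio test called any. Over all ORs, 0.368% were called higher and 0.0919% lower. The smallest p belonged to Olfr1093, at 82.5 ± 24.2 normalized counts with no odor and 51.0 ± 15.0 with the odor (SD, n = 3, adjusted p = 0.842). At 0.1% TMT, 0 members were called, 1 had an unadjusted p below 0.05 (7.17% of all ORs did), DESeq2 called 0 and the likelihood ratio test 1 (2.3% of all ORs). Over all ORs, 1.38% were called higher and 0.643% lower. The smallest p was that of Olfr1084, at 1.3 ± 2.3 and 12.4 ± 7.8 normalized counts (adjusted p = 0.394), a gene of few reads and near-identical copies.

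The change from 1% to 100% TMT was tested directly in a fit of all 18 TMT libraries. Of the members, 10 (12.3%) were higher at 100% and 0 were lower. Of all 1088 ORs, 69 were higher and 19 lower, so that 8.09% differed in either direction. Olfr1054 rose most, from 18.7, 40.5 and 25.9 normalized counts at 1% to 113.5, 145.2 and 231.7 at 100% (log2 difference 2.50 ± 0.39, adjusted p = 6.91e-07). Olfr1047 had 40.1, 40.5 and 65.8 at 1%, so that its values at 100% TMT were clear of them (2.17 ± 0.34, adjusted p = 9.65e-07). For Olfr1079 the difference was 1.67 ± 0.29 and for Olfr1104 1.41 ± 0.25 (adjusted p = 1.02e-05 for each). The others were Olfr1102, Olfr1087, Olfr1101, Olfr1046, Olfr1048 and Olfr1094, with log2 differences of 1.32 to 1.76. Olfr1085 was not among them: it had the lower values at 100%, 55.7, 56.0 and 87.6, with a log2 difference of -0.90 ± 0.36 (adjusted p = 0.125). Olfr1093 and Olfr1051, also called at 1% TMT, had log2 differences of 0.72 ± 0.27 (adjusted p = 0.0939) and 0.02 ± 0.52. Between 0.01% and 0.1% TMT, 0 members differed by edgeR's quasi-likelihood test, DESeq2 or the likelihood ratio test, 0 had an unadjusted p below 0.05 (3.68% of all ORs did), and 0.46% of all ORs differed.

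Fewer members were called under ACT, which does not show that fewer responded. The fitted coefficient of variation between mice was 0.402 at 0.01% and 0.335 at 100% ACT, against 0.255 and 0.26 for TMT. Whether this set the number of calls was not tested. The study, with its own fit, reports more ORs enriched at 100% ACT than at 100% TMT. A direct comparison of the odorants is given below. At 0.1% ACT, Olfr1026 was the sole member called, against 0.643% of all ORs called higher and 0% called lower. Olfr1026, a dorsal receptor of family MOR196 at chr2:85921558-85924623, had 34.3, 20.2 and 32.6 normalized counts with no odor. At 0.1% ACT it had 154.9, 111.8 and 59.6, a log2 fold change of 1.86 ± 0.34 (adjusted p = 0.0127). The groups did not overlap, and the litters differed in how far they rose. The call was lost with a filter on low counts, without litter 1 and without litter 2, where the log2 fold changes were still 1.66 and 1.56. At 0.01% ACT its values were 18.2, 33.3 and 43.8, which overlapped those of the no odor mice.

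At 1% ACT, Olfr1026 had 35.4, 107.9 and 194.1 normalized counts, against 48.2, 46.6 and 30.4 with no odor (log2 fold change 1.23 ± 0.36, adjusted p = 0.0578). Litters 2 and 3 were high while litter 1 stayed among the no odor values. Without litter 1 the log2 fold change was 1.89 (adjusted p = 8.95e-05). That fit drops the mouse that did not rise and leaves few residual degrees of freedom. Olfr1026 was not called without litter 2, nor without litter 3. At 100% ACT it had 21.3, 39.4 and 179.4, so that litter 3 alone was high. Under TMT, none of the 12 mice exceeded 47.5 normalized counts of Olfr1026, and its no odor mice in that experiment reached 58.3.

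In total, 0 members were called higher at 1% ACT and 1 lower, against 1.38% and 0.276% of all ORs. By unadjusted p below 0.05, 3 were higher and 5 lower, against 4.41% and 2.94% of all ORs. Neither DESeq2 nor the likelihood ratio test called a member. The member called lower was Olfr1048, with 38.5, 61.1 and 41.8 normalized counts with no odor and 10.1, 33.8 and 3.0 at 1% ACT (log2 fold change -1.79 ± 0.50, adjusted p = 0.0248). The call held in 1 of 8 alternatives. In the TMT experiment the same receptor had 30.4, 23.7 and 21.9 with no odor, and 64.0, 112.0 and 78.5 at 100% TMT.

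**Figure D3:**
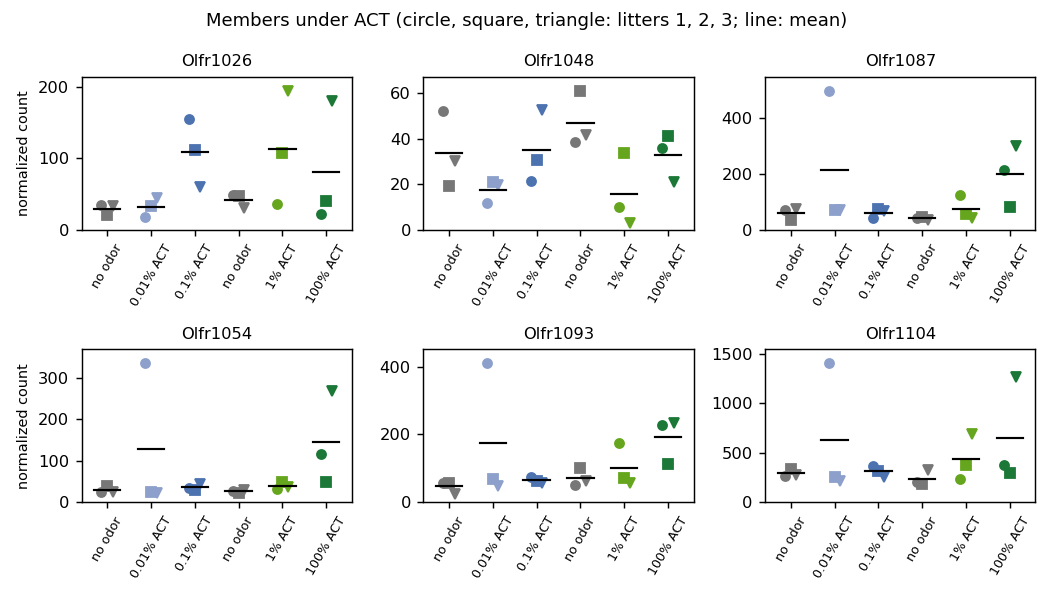
Normalized counts (y axis, scale set for each gene) of 6 members in the ACT libraries: no odor, 0.01% and 0.1% ACT of the low concentration experiment, then no odor, 1% and 100% ACT of the high one (x axis). Circles, squares and triangles are litters 1, 2 and 3, and lines are means of 3 mice. Olfr1026 is raised at 0.1% ACT, and litter 1 alone is high at 0.01% ACT for Olfr1087, Olfr1054, Olfr1093 and Olfr1104.

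At 100% ACT no member passed edgeR's quasi-likelihood test, and neither did any other OR (0% higher and 0% lower). This does not show that no OR responded. The study, with its own fit, reports many ORs enriched at 100% ACT. By unadjusted p below 0.05, 15 members were higher and 4 lower, against 10.5% and 3.77% of all ORs. DESeq2 called 4 members (Olfr1043, Olfr1045, Olfr1054 and Olfr1087) and 2.11% of all ORs, and the likelihood ratio test 6 members and 3.95% of all ORs. The smallest adjusted p was 0.0513, for Olfr1054 and Olfr1087. Olfr1054 had 26.5, 22.5 and 28.5 normalized counts with no odor and 116.9, 47.3 and 269.1 at 100% ACT (log2 fold change 2.17 ± 0.47). Olfr1087 had 40.9, 45.0 and 34.2 with no odor and 214.8, 80.8 and 300.8 with ACT (2.10 ± 0.45). In both the groups were apart, but the 3 exposed mice spread widely. All 3 exposed mice were above all 3 unexposed ones for 12 members (14.8%), against 8.64% of all ORs, and below them for 9 members (11.1%), against 9.19%.

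Of the dorsal neighbours of family MOR185 named above, Olfr1043 and Olfr1045 were among these 12. Olfr1043 had 40.9, 28.9 and 28.5 normalized counts with no odor and 80.8, 96.5 and 374.7 at 100% ACT (log2 fold change 2.14 ± 0.50, adjusted p = 0.0827). Olfr1045 had 113.2, 98.0 and 96.9, against 131.8, 254.1 and 1176.8 (1.72 ± 0.54, adjusted p = 0.171). Litter 3 was by far the highest in each. Their neighbour Olfr1044 had 65.0, 106.1 and 77.9 with no odor and 59.5, 100.5 and 73.9 with ACT, so that the groups overlapped completely. Without litter 1, 11 members passed the test as higher, as did 7.54% of all ORs. Without litter 2, 3 members and 1.38% of all ORs did. Without litter 3, the mouse with the highest values here, no member passed, and the share of all ORs was not counted.

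At 0.01% ACT, 0 members were called by edgeR's quasi-likelihood test, DESeq2 or the likelihood ratio test, with 2 at an unadjusted p below 0.05 (2.57% of all ORs), and 0% of all ORs were called higher or lower. The study, with its own fit, reports a few ORs enriched at 0.01% ACT. The mouse of litter 1 was far above the others in a set of members. Olfr1104 had 1406.3 normalized counts in it, against 255.6 and 213.0 in litters 2 and 3. Olfr1102 had 610.1, against 39.5 and 34.7. Olfr1087 had 498.3, against 70.5 and 71.0. These receptors are among those called at 100% TMT. Without litter 1, still 0 members were called and 3 had an unadjusted p below 0.05 (4.41% of all ORs). The log2 fold change of Olfr1104 was 0.50 with litter 1 and -0.38 without it, that of Olfr1102 0.97 and -0.19, and that of Olfr1087 1.32 and 0.53.

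Over the 14 members called higher at 100% TMT, the median log2 change of an exposed mouse from its no odor littermate was 2.62 in litter 1 at 0.01% ACT, with 12 of the 14 above all 3 no odor mice. In litters 2 and 3 it was -0.07 and -0.34. At 100% ACT the medians were 0.95, 0.33 and 1.93, at 1% ACT 0.21, 0.20 and 0.29, and at 0.1% ACT 0.01, 0.04 and -0.27. In the mice given 100% TMT, which chose these genes, the medians were 1.32, 2.16 and 2.40. Over the 729 ORs whose mean count reached 20, the median was between -0.04 and 0.07 in every mouse. What set litter 1 apart at 0.01% ACT was not tested.

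**Figure D4:**
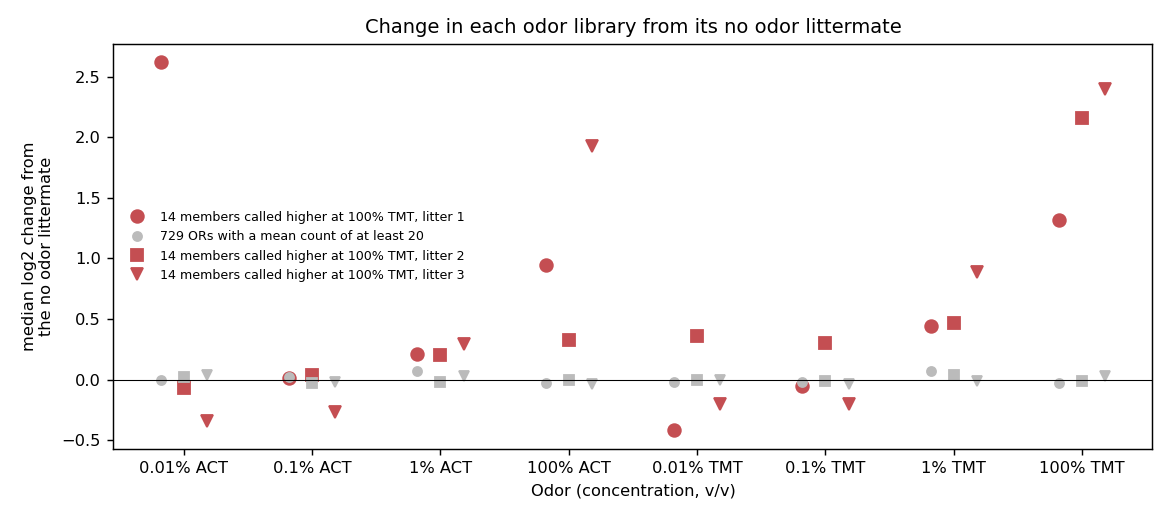
Median log2 change from the no odor littermate (y axis) over the 14 members called higher at 100% TMT (red) and over 729 ORs (gray), for each of the 24 exposed mice, by odor and concentration (x axis). Circles, squares and triangles are litters 1, 2 and 3. Litter 1 at 0.01% ACT reaches 2.62, above all 3 mice given 100% TMT, from which the 14 members were chosen.

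Tested directly, 0 members differed between 100% and 1% ACT by the quasi-likelihood test, as did 0% of all ORs, with 15 members and 12.7% of all ORs at an unadjusted p below 0.05. DESeq2 called 4 members (1.75% of all ORs) and the likelihood ratio test 3 (0.643% of all ORs). The smallest adjusted p was that of Olfr1079, which had 67.3, 75.4 and 80.6 normalized counts at 1% ACT and 146.7, 189.1 and 353.6 at 100% ACT (log2 difference 1.55 ± 0.29, adjusted p = 0.0853). Its values at the 2 concentrations did not overlap. This fit takes its spread from all 18 ACT libraries. Without the 0.01% ACT mouse of litter 1 it called 6 members, namely Olfr1036, Olfr1042, Olfr1043, Olfr1045, Olfr1054 and Olfr1079, and 3.31% of all ORs. Between 0.01% and 0.1% ACT, 0 members and 0% of all ORs differed, with 3 members at an unadjusted p below 0.05 (6.07% of all ORs) and no call by DESeq2 or the likelihood ratio test. Without the 0.01% ACT mouse of litter 1, 0 members were called and 5 had an unadjusted p below 0.05 (4.69% of all ORs).

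The responses to the odorants were compared at matched concentrations in a fit of all 36 libraries, as the change from no odor under ACT minus that under TMT. No member differed by the quasi-likelihood test at 0.01%, 0.1%, 1% or 100%. Of all ORs, 0%, 0.46%, 0% and 0% did. At an unadjusted p below 0.05 there were 2, 2, 3 and 10 members, against 4.69%, 3.95%, 4.6% and 10.8% of all ORs. DESeq2 and the likelihood ratio test each called 2 members at 100% (1.29% and 1.01% of all ORs) and none at the lower concentrations. At 0.01%, leaving out the 0.01% ACT mouse of litter 1 left 0 members called and 2 at an unadjusted p below 0.05 (4.23% of all ORs). The 2 called by both of these at 100% were Olfr1036 and Olfr1037, which are dorsal neighbours. Olfr1037 had 40.9, 65.9 and 53.2 normalized counts with no odor and 42.5, 147.7 and 295.5 at 100% ACT. In the TMT experiment it had 103.3, 75.3 and 80.2 with no odor and 41.3, 39.4 and 54.7 at 100% TMT. The difference in log2 fold change was 2.34 ± 0.52 (adjusted p = 0.0967). For Olfr1036, which shares 15.47% of its 50-base stretches with Olfr1034, it was 2.45 ± 0.68 (adjusted p = 0.131). Under undiluted TMT, every value of Olfr1037 was below its no odor mice, while under undiluted ACT litters 2 and 3 were above theirs. For Olfr1093 the difference at 100% was -1.14 ± 0.68, and for Olfr1085 it was -0.81 ± 0.95, and neither passed the test.

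**Figure D5:**
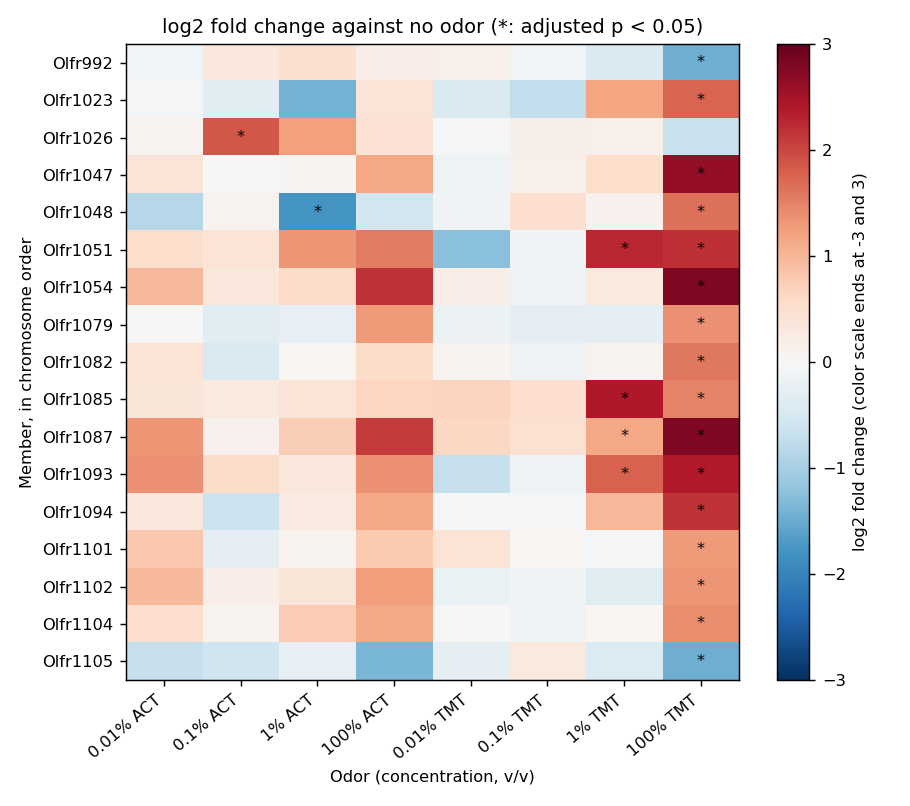
Log2 fold change against no odor (color, red for higher and blue for lower) of every member called in at least 1 odor comparison, in chromosome order (y axis), for ACT and TMT at the 4 concentrations (x axis). Asterisks mark an adjusted p below 0.05. Calls crowd at 100% TMT, where 16 members have one, while Olfr1026 is marked at 0.1% ACT and Olfr1048 at 1% ACT and 100% TMT.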

How the data were processed

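OR expression was measured by pS6-IP-Seq in 36 mice and by RNA-Seq in 3 dorsal and 3 ventral samples. The authors mapped 50-base reads with STAR to GRCm38 and estimated expected counts with RSEM on ORs annotated with their untranslated ends, and the deposited expected counts are rounded to whole numbers. No strand was kept by the library kits. The tables also hold the authors' log2 fold changes, log2 CPM, p-values, FDR values and group means, which were not used. The protocol label of the dorsal and ventral samples describes pS6-IP-Seq, while the study's methods describe total RNA. The replicate 1 library used as 0.1% TMT is so by its odor label, although that library's label also names a file of 1% TMT. That a no odor library belongs to an experiment was taken from the table that holds it.

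Here, counts were tested with edgeR 4.0.16 in R 4.3.3 (glmQLFit with robust = TRUE and glmQLFTest), scaled by TMM over the ORs, with no filter on low counts, the replicate number as a block and Benjamini-Hochberg adjustment over all intact ORs. The control of a concentration was the unexposed group of the same experiment. Concentrations were compared in all 18 libraries of an odorant and odorants in all 36, with 6 and 12 litters as blocks. The SE was derived from the log2 change and its F statistic, so it restates the test. Changes from a littermate use a pseudocount of 1. Alternatives were DESeq2 1.42.0, edgeR's likelihood ratio test, no TMM scaling, a filter on low counts, no block and leaving out each replicate. Leaving out the 0.01% or the 1% ACT library of litter 1 was added after the data were seen. The fit was tested on simulated data.

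The members, lists and tests were chosen with earlier results of these data known. Named are, for each odor comparison, up to 8 called members of smallest adjusted p that changed alike in all litters, members called higher in 2 or more comparisons, and the 2 of smallest p where fewer than 3 were called. Named too are up to 4 members per direct comparison, the 5 largest dorsal and 5 largest ventral differences at a mean count of at least 20, and members that share over 20% of their 50-base stretches. Others, among them the remaining members called at 100% TMT, relatives of called members, Olfr1086, Olfr1018 and members with small p at 100% ACT, were named after their values were seen. Families are the MOR numbers among the RefSeq synonyms, in place of the family symbols first planned. Gene positions are from GENCODE M21, which places 1082 ORs uniquely, and sequences are from the RefSeq copy of GRCm38.p6, read with pysam 0.24.0. Python 3.11.15, numpy 2.4.6, pandas 2.3.3, scipy 1.17.1, Biopython 1.88 and matplotlib 3.10.9 were used.

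The pairing by replicate number was checked by correlating deviations from the group means. The study describes littermates of the same sex within a replicate. Median correlations of libraries with the same number were 0.091 and 0.145 for the low and high ACT experiments and 0.119 and 0.075 for TMT, against -0.033, -0.071, -0.054 and -0.031 for different numbers. Dorsal and ventral samples of the same number, paired by the authors' R code, had -0.327, against 0.195, which goes against that pairing.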

Additional observations from a re-analysis of the deposited data

How the results depend on the processing

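With 3 mice per group and 37012 to 128805 OR counts per pS6-IP-Seq library, members with a handful of reads, such as Olfr1051, Olfr1082 and Olfr1084, have imprecise fold changes, and a missing call does not show that a receptor did not respond. Fits without a litter leave few residual degrees of freedom. Of 42 log2 fold changes of named members, refitted without TMM, without the block and without each litter (210 values), 0 turned their sign. In 186 of these the call was unchanged, in 18 it was lost and in 6 it was gained. The 42 were picked for a call, a small p or a large difference, so a kept sign is partly due to that choice. Olfr1104 and Olfr1102 at 0.01% ACT, which are not among the 42, turned their sign without litter 1. The cause of the changes below was not tested. Counts below are of members, and for most of these fits the share of all ORs called was not counted. They therefore do not show whether a change is particular to the members.

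At 0.1% ACT, 0 members were called with a filter on low counts, and 0 to 1 when a litter was left out. At 1% ACT, leaving out a litter gave 0 to 1 higher. At 100% ACT, 4 members were called higher by DESeq2, 4 by the likelihood ratio test and 0 to 11 when a litter was left out. At 0.1% TMT, the likelihood ratio test called 1. At 1% TMT, DESeq2 called 2, no TMM scaling gave 2 and leaving out a litter 2 to 3. At 100% TMT, 10 to 12 members were higher and 0 to 1 lower when a litter was left out, and 1 was lower by DESeq2. Ventral calls ran from 4 to 13 when a litter was left out. Between 100% and 1% ACT, DESeq2 called 4, the likelihood ratio test 3, leaving out a litter gave 0 to 11, and leaving out the 0.01% ACT mouse of litter 1 gave 6. For ACT minus TMT at 1%, leaving out a litter gave 0 to 1. For ACT minus TMT at 100%, DESeq2 and the likelihood ratio test each called 2, no TMM scaling gave 1, leaving out a litter gave 0 to 8, leaving out the 0.01% ACT mouse gave 2 and leaving out the 1% ACT mouse gave 1.

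Without the replicate block, 1 member was called higher at 100% ACT and 1 differed between ACT and TMT at 100%. At 1% TMT the fit without the block called 3, at 100% TMT 13 higher and 2 lower, and 52 members were dorsal and 12 ventral. Olfr1048 at 1% ACT lost its call without the block (log2 fold change -1.55, adjusted p = 0.891). Dropping TMM scaling moved the median over all ORs by -0.23 at 0.01%, -0.14 at 1% and -0.15 at 100% ACT, by -0.21 at 1% TMT and by 0.17 between 0.1% and 0.01% ACT. For ACT minus TMT it moved by -0.28 at 0.01% and 0.12 at 100%.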
